A study of Mus musculus with 5 samples.

Results

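E-cadherin and the proteins that tie it to the cytoskeleton were followed through 8 genes of the adherens junction, namely *Cdh1*, *Ctnna1*, *Ctnnb1*, *Ctnnd1*, *Jup*, *Vcl*, *Afdn* and *Nectin2*. These were 8 of the 31053 genes in the count tables, and all 8 were found. They were chosen as a named complex, with earlier results of these data known. Levels are CPM, the UMIs of the gene per 1000000 UMIs summed over the cells of a gate. The AT2 gate took cells with at least 5% of their UMIs from *Sftpc* (surfactant protein C), at least 1 *Epcam* UMI and none of *Cdh5*, *Pecam1* and *Col1a2*. The endothelial gate took cells with at least 2 UMIs of *Cdh5* and *Pecam1* together and none of *Epcam* and *Col1a2*, and the mesenchymal gate took cells with at least 2 *Col1a2* UMIs and none of *Cdh5*, *Pecam1* and *Epcam*.

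Adherens junctions hold neighboring cells together. E-cadherin spans the membrane and binds E-cadherin of the next cell, p120-catenin (*Ctnnd1*) holds it at the surface, β-catenin (*Ctnnb1*) or plakoglobin (*Jup*) binds its tail, and α-catenin (*Ctnna1*) links β-catenin to actin and recruits vinculin (*Vcl*) under tension. Nectin-2 (*Nectin2*) is a second adhesion receptor of these junctions, joined to actin by afadin (*Afdn*). In the alveolus, E-cadherin marks the epithelium, and endothelial junctions are built on VE-cadherin (*Cdh5*) with the same catenins.

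Single-cell RNA sequencing was done on lungs of adult mice, with 1 library for each of 5 groups. β1 AT2-KO mice carry SP-C rtTA, TetO-Cre and Itgb1 fl/fl, so that doxycycline deletes β1 integrin in cells with an active SP-C promoter, and β1 fl/fl littermates without rtTA and Cre served as controls; both received doxycycline in the drinking water. The groups were β1 fl/fl and β1 AT2-KO 7 days after intratracheal LPS, β1 AT2-KO 7 days after PBS, and β1 fl/fl and β1 AT2-KO 21 days after LPS. All cells were sorted as viable CD45- Ter119- cells, and the day 21 suspensions had EPCAM+ cells added. Uninjured β1 fl/fl lungs were not analysed here. Cells carried hashtags, of which 3 were in use in each library. Each hashtag is called a mouse here for short, but how many animals a hashtag holds is not given in the sources used here, so that an n of 3 counts hashtags and may not count single animals. The mice of a group share 1 library, so library and condition cannot be told apart, and p-values measure only the spread between hashtags.

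After filtering, 2224 to 8671 cells and 8360954 to 29128331 UMIs remained in a library. The AT2 gate held 119 and 355 cells at day 7 (β1 fl/fl, then β1 AT2-KO, after LPS), 26 after PBS, and 176 and 1240 at day 21. The endothelial gate held 879 to 7976 cells and the mesenchymal gate 103 to 553. The 9 AT2 markers other than *Sftpc*, which the gate uses, were all detected in the AT2 gate and summed to 61470 to 71774 CPM in a library, against 284 to 3802 in the endothelial and 95 to 1908 in the mesenchymal gate. Of the AT2 gate cells at day 7 after LPS, 73.9% carried a single hashtag in β1 fl/fl lungs and 41.1% in β1 AT2-KO lungs. At day 21 the shares were 73.3% and 58.5% in the AT2 gate and 59.7% and 69.5% in the endothelial gate. In the mesenchymal gate they were 40.0% and 39.1% at day 7 after LPS and 17.5% and 20.0% at day 21. Only cells with a single hashtag enter the sums per mouse. Any pair of libraries shared 15 to 102 cell barcodes, 0.674% to 1.41% of the smaller library. At day 7 the β1 fl/fl mice all expressed *Xist* and the LPS-treated β1 AT2-KO mice all expressed Y-linked genes, so sex and genotype cannot be told apart there. At day 21, hashtag 1 of the β1 fl/fl library held both, with *Xist* at 91.8 and Y-linked genes at 82.4 CPM. The other β1 fl/fl mice there had *Xist* at 242 and 205 and Y-linked genes at 0.845 and 1.48, whereas β1 AT2-KO mouse 1 had *Xist* at 145 (Y-linked genes 5.72) and mice 2 and 3 had Y-linked genes at 78.5 and 106 (*Xist* 19.2 and 8.45). After PBS, mouse 1 had *Xist* at 196 (Y-linked genes 6.19) and mice 2 and 3 had Y-linked genes at 135 and 149 (*Xist* 15.3 and 11.1). Sex was therefore unevenly spread over the groups in the day 21 and the LPS against PBS comparisons too, and its part in the results was not tested. The deleted gene, *Itgb1*, stood at 235, 240 and 318 CPM in AT2 gate cells of the 3 β1 fl/fl mice at day 7 and at 209, 171 and 200 in the LPS-treated β1 AT2-KO mice, which did not pass the test across all genes (log2 fold change -0.53 ± 0.17 SE, edgeR quasi-likelihood adjusted p = 0.15). At day 21 it stood at 347, 321 and 365 against 142, 198 and 148 (-1.21 ± 0.13, edgeR adjusted p = 4.86e-06). These counts come from the 5′ end of each transcript, and a transcript that keeps its 5′ end after the deletion would still be counted.

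The genes of the complex differed between AT2 and endothelial gate cells, and they did so in opposite directions. In sums per mouse paired within 12 mice, *Cdh1*, *Nectin2* and *Ctnnb1* were higher in the AT2 gate, and *Jup*, *Vcl*, *Ctnna1*, *Ctnnd1* and *Afdn* were higher in the endothelial gate (edgeR adjusted p under 0.05). No PBS-treated mouse reached 10 tagged cells in the AT2 or the mesenchymal gate, so the contrasts between gates hold LPS-treated mice only. *Cdh1* reached the filter on low counts in the AT2 gate and not in the endothelial gate, which fixed its direction, and the other 7 members reached it in both gates and passed in 7 of 7 cases. Differences between these gates were the rule, since 73.7% of 7218 genes tested passed.

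**Figure D1:**
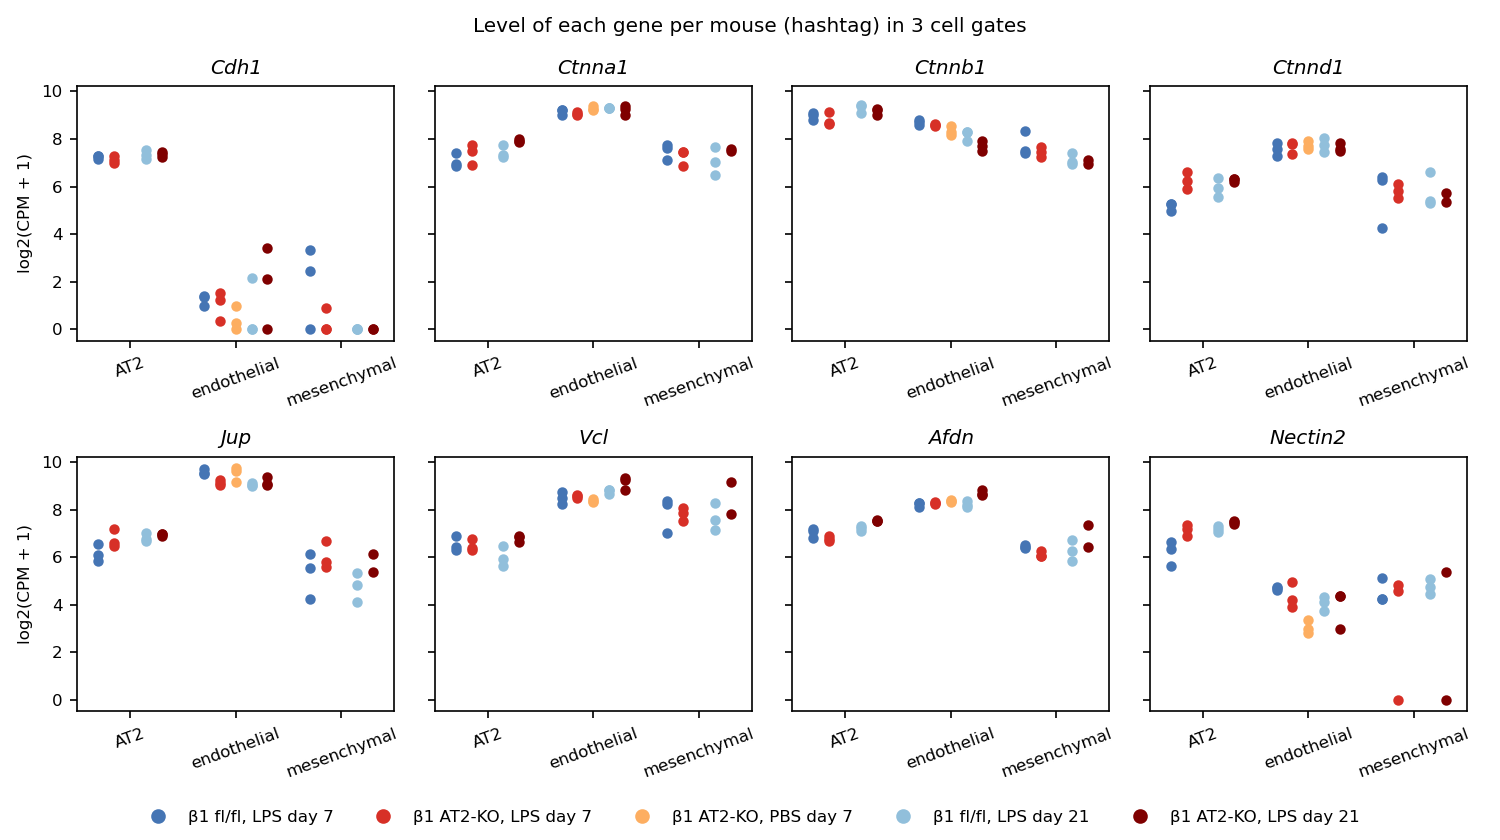
Level of each gene per mouse as log2(CPM + 1), by gate, with each point a mouse and colors for the 5 groups. *Cdh1* sits high in the AT2 gate and near 0 in the other 2 gates, whereas *Jup*, *Ctnna1*, *Ctnnd1* and *Afdn* are highest in the endothelial gate; mice with fewer than 10 gated cells are left out.

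*Cdh1* was the most gate-restricted member. Over whole libraries its level in the AT2 gate was 153, 153, 81.8, 155 and 164 CPM in β1 fl/fl LPS day 7, β1 AT2-KO LPS day 7, β1 AT2-KO PBS, β1 fl/fl LPS day 21 and β1 AT2-KO LPS day 21 cells. In the endothelial gate it was 1.84, 2.55, 0.434, 0.659 and 6.32 in the same order. The counts gave an AT2 to endothelial ratio of 26.0 to 235 by library, the smallest with an exact 95% interval of 15.2 to 48.9. Mesenchymal gate cells held 0 to 2 *Cdh1* UMIs in a library. The fitted differences were 7.21 ± 0.20 and 7.27 ± 0.31 log2 against endothelial and mesenchymal gate cells. Since *Cdh1* reached the filter on low counts in the AT2 gate alone, these 2 values are a description. A *Cdh1* UMI was found in 53.8% to 77.8% of AT2 gate cells and in 0.0842% to 1.02% of endothelial gate cells, which were shallower (in the β1 fl/fl day 7 library, a median of 8947 and 2428.5 UMIs a cell). After thinning each cell to 2000 UMIs the share in AT2 gate cells was 25.6%, 27.7%, 11.5%, 29.1% and 28.2% in the order above. Intervals cover counting error only.

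The endothelial *Cdh1* counts were set against *Sftpc*, taken here as free RNA from AT2 cells in other gates. The source of *Sftpc* in those gates was not tested. For every 1000 *Sftpc* UMIs, AT2 gate cells held 0.748 *Cdh1* UMIs in the β1 fl/fl day 7 library and endothelial gate cells held 0.631. In the LPS-treated β1 AT2-KO day 7 library the values were 0.741 and 0.623. At day 21 endothelial gate cells held fewer than AT2 gate cells for the same *Sftpc*, 0.225 against 0.682 in β1 fl/fl lungs and 0.412 against 0.799 in β1 AT2-KO lungs, from 2 and 13 *Cdh1* UMIs. After PBS they held more, 0.595 against 0.334, from 9 endothelial UMIs, and the endothelial level of 0.434 CPM had an exact 95% interval of 0.199 to 0.825, which covers the 0.244 that the AT2 ratio gives. The 5 genes whose levels across 15 sums of library and gate were most like *Cdh1*, among 6234 genes compared, were *Urah*, *Tinag*, *Epn3*, *Slc26a9* and *Slco4c1* (Pearson's r of log2 levels 0.995, 0.995, 0.994, 0.994 and 0.994), a description over sums that share libraries.

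*Nectin2* was the other receptor with a higher level in the AT2 gate. Its level was 92.6 to 145 CPM in the AT2 gate of 4 libraries and 171 in β1 AT2-KO lungs at day 21, against 7.29 to 26.4 in the endothelial gate. The difference against endothelial gate cells was 3.28 ± 0.17 on the log2 scale (edgeR adjusted p = 3.82e-15). Against mesenchymal gate cells it was 2.66 ± 0.23, a description, since *Nectin2* reached the filter on low counts in the AT2 gate alone. Endothelial and mesenchymal gate cells did not pass the test between them (-0.27 ± 0.23, edgeR adjusted p = 0.34).

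The 2 β-class catenins were divided between the gates. *Ctnnb1* was higher in AT2 than in endothelial gate cells (1.40 ± 0.13 log2, edgeR adjusted p = 6.37e-10), and *Jup* was lower (-1.86 ± 0.12, edgeR adjusted p = 3.78e-13). In β1 fl/fl mice at day 7, *Ctnnb1* averaged 498 CPM in the AT2 gate and 420 in the endothelial gate. The ranges overlapped (439 to 547 and 390 to 446). The means were 458 and 385 in LPS-treated β1 AT2-KO mice at day 7. At day 21 they were 629 and 288 in β1 fl/fl and 573 and 209 in β1 AT2-KO mice. *Jup* made up 12.5% ± 1.80 (SD, n = 3) of *Jup* and *Ctnnb1* UMIs in the AT2 gate of β1 fl/fl mice at day 7 and 64.6% ± 1.57 in their endothelial gate. In β1 AT2-KO mice at day 7 after LPS the shares were 19.6% ± 6.46 and 59.1% ± 1.79. Over all mice with at least 10 tagged cells in the gate, the share ran from 11.3% to 26.8% in the AT2 gate. In the endothelial gate it ran from 57.1% to 74.8%. No mouse overlapped between the 2 gates. The share counts molecules by their 5′ ends and is not scaled by length. Mesenchymal gate cells overlapped the AT2 range, with 8.70% to 40.0% in a mouse, and their *Jup* level was lower than in both other gates (endothelial against mesenchymal 3.45 ± 0.19 log2, edgeR adjusted p = 2.07e-13).

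**Figure D2:**
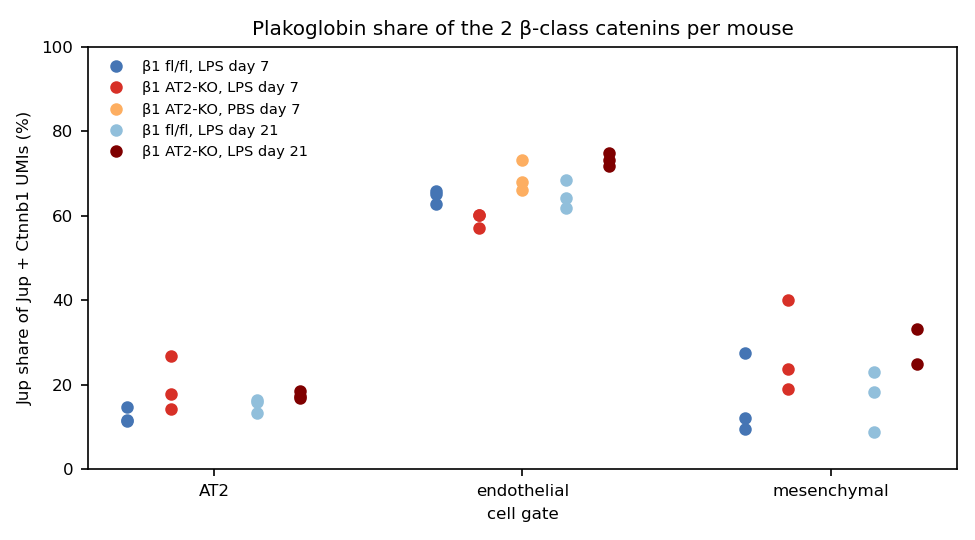
Share of Jup among Jup and Ctnnb1 UMIs (percent) in each mouse by gate, with each point a mouse. AT2 gate values run from 11.3% to 26.8% and endothelial gate values from 57.1% to 74.8%.

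The actin-linking members and p120-catenin were lower in AT2 than in endothelial gate cells. *Ctnna1* differed by -1.05 ± 0.10, *Ctnnd1* by -0.99 ± 0.12, *Vcl* by -1.65 ± 0.11 and *Afdn* by -0.57 ± 0.08 on the log2 scale. *Vcl* was also lower in AT2 than in mesenchymal gate cells (-1.18 ± 0.16, edgeR adjusted p = 1.28e-06), whereas *Afdn* was higher there (1.02 ± 0.13, edgeR adjusted p = 4.91e-07). Against mesenchymal cells 5 of the 6 members that reached the filter in both gates passed the test, with 59.4% of 4407 genes passing in all. *Cdh1* and *Nectin2* reached it in the AT2 gate and not in the mesenchymal gate, which fixed their direction. The scaling mattered for 2 members: *Ctnna1* was higher by 0.35 ± 0.14 (edgeR adjusted p = 0.032) and *Ctnnd1* by 0.39 ± 0.19 (adjusted p = 0.087) with TMM factors, and -0.05 and -0.01 with total UMIs alone. With total UMIs alone the median of all genes stood at -0.69 log2 between AT2 and endothelial cells and at -0.45 between AT2 and mesenchymal cells, in place of -0.04 in both, and this scaling reversed no member in the endothelial contrast. The *Ctnna1* call against mesenchymal cells was also lost on leaving out any of 5 mice, namely mice 1 and 3 of LPS-treated β1 AT2-KO at day 7, mouse 2 of β1 AT2-KO at day 21 and mice 1 and 3 of β1 fl/fl at day 21 (adjusted p = 0.05 to 0.10). Between endothelial and mesenchymal cells 6 of 7 members tested were higher in the endothelial gate, where 53.4% of 7275 genes passed, with *Afdn* at 1.77 ± 0.11, *Ctnna1* at 1.61 ± 0.13, *Ctnnd1* at 1.47 ± 0.17, *Ctnnb1* at 0.82 ± 0.11 and *Vcl* at 0.53 ± 0.15.

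Genes of related junctions and of the pathway showed which neighbors of the complex moved with the gate. Of 57 listed genes, 56 were in the files and 31 were tested between AT2 and endothelial cells. In 23 of these the filter on low counts was reached within both gates. Of the 23, 8 were higher in the AT2 gate, 10 lower and 5 not called, where 73.7% of all genes tested passed. The other 8 reached the filter in 1 gate only, so that their direction was fixed by it and their values are a description. These were 4 of 6 desmosome genes, with *Pkp2* (plakophilin-2) at 6.69 ± 0.28, *Dsp* (desmoplakin) at 5.88 ± 0.24, *Perp* at 5.85 ± 0.25 and *Ppl* (periplakin) at 4.99 ± 0.23 log2, and 2 of 6 epithelial regulators, *Elf3* and *Esrp1* (6.27 ± 0.21 and 6.03 ± 0.28), all reaching it in the AT2 gate. The same holds for 2 of 6 repressors of E-cadherin transcription, *Zeb1* and *Zeb2* (-5.69 ± 0.26 and -4.76 ± 0.21), which reached it in the endothelial gate. Among nectin and afadin partners, *Nectin1* (3.63 ± 0.20) and *Ssx2ip* (3.13 ± 0.22) were higher and *Nectin3* (-0.97 ± 0.10), *Rap1a* (-1.78 ± 0.09) and *Rap1b* lower. Among the destruction complex that degrades β-catenin, *Apc* (1.91 ± 0.09), *Gsk3b* (0.45 ± 0.08) and *Axin1* (0.52 ± 0.23) were higher and *Btrc* (-1.35 ± 0.19) and *Csnk1a1* (-0.67 ± 0.09) lower. Among the actin linkers 5 were lower, among them the tight junction scaffold *Tjp1* (-1.72 ± 0.10), *Zyx* (zyxin, -1.53 ± 0.13) and *Lima1* (-1.13 ± 0.09), and *Limd1* was higher (1.38 ± 0.16).

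In the GENCODE vM21 annotation of GRCm38, *Cdh1* lies on chromosome 8 at 106603351 to 106670246, *Ctnnb1* on chromosome 9 at 120929216 to 120960507, *Ctnnd1* on chromosome 2 at 84600071 to 84650765, and *Afdn* on chromosome 17 at 13760539 to 13906150.

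The upstream sequence of 3 members is shown. *Nectin2* was highest in AT2 cells, and *Jup* and *Vcl* were both highest in endothelial cells. *Jup* was lowest in mesenchymal cells and *Vcl* in AT2 cells. Each run is the 250 bases before the transcription start in RefSeq (GRCm38.p6), 5′ to 3′ on the gene's strand, at chr7:19749574-19749823 (minus strand) for *Nectin2*, chr11:100397791-100398040 (minus strand) for *Jup* and chr14:20929148-20929397 (plus strand) for *Vcl*. In GENCODE vM21 *Nectin2* spans 19716644 to 19750483 on chromosome 7. The *Nectin2* run therefore lies inside the gene as annotated there, downstream of its 5′ end. Capitals mark matches, on either strand, to the GC box (GGGCGG), the CCAAT box (CCAAT) and the E-box (CACCTG), and matches may overlap. The promoter table used here held 6 of the 8 members.
Nectin2: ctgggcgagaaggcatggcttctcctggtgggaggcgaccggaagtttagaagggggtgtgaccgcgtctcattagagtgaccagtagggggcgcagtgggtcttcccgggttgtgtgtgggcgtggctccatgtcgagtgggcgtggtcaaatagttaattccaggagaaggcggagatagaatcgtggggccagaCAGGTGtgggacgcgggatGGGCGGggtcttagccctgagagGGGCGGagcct
Jup: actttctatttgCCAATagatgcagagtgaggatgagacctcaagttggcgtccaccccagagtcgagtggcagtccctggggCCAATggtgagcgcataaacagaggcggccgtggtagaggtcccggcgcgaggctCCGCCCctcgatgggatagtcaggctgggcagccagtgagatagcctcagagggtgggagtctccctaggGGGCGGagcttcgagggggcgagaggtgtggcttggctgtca
Vcl: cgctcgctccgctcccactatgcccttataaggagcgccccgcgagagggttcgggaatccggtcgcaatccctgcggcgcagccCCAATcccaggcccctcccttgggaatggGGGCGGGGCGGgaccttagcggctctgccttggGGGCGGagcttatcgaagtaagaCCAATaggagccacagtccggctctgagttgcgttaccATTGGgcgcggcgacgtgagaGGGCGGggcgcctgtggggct
*Nectin2* held 2 GC boxes and 1 E-box, *Jup* 2 GC boxes and 2 CCAAT boxes, and *Vcl* 4 GC boxes and 3 CCAAT boxes. Over windows 250 bases before the start of 32851 promoters, 32.7% held the GC box, 33.8% the CCAAT box and 17.2% the E-box. A match is a description of the letters and not a binding site.

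In AT2 gate cells of the injured lung, none of the 8 genes passed the test between genotypes, at day 7 or day 21. At day 7, 0 of 8 passed with edgeR, where 2.00% of 4707 genes did. DESeq2 also called 0 of 8. In edgeR 2 members, *Ctnnd1* and *Nectin2*, had an unadjusted p under 0.05, as did 570 of the 4707 genes. *Cdh1* itself stood at 154, 141 and 154 CPM in the β1 fl/fl mice and at 125, 139 and 157 in the β1 AT2-KO mice. The groups overlapped, and the log2 fold change was -0.18 ± 0.18 (edgeR adjusted p = 0.78). An interval of 2 SE on either side of it ran from -0.55 to 0.19.

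*Ctnnd1* was the member with the widest separation at day 7. Its level was 37.9, 30.7 and 37.4 CPM in β1 fl/fl mice, from 5 to 19 UMIs a mouse, and 59.1, 73.6 and 96.2 in β1 AT2-KO mice, from 17 to 49 UMIs. Every β1 AT2-KO mouse was above every β1 fl/fl mouse, and the fitted difference was 1.01 ± 0.29 log2 (edgeR adjusted p = 0.093). Against *Cdh1* in the same cells, *Ctnnd1* stood at 0.236 ± 0.0159 per *Cdh1* UMI in β1 fl/fl mice and at 0.538 ± 0.0706 in β1 AT2-KO mice (n = 3 each), also without overlap, with an exact permutation p = 0.1 (two-sided, 0.18 after adjustment over 16 ratios), the smallest that 3 against 3 allows. Several of the other ratios reached this smallest value as well.

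*Nectin2* stood at 97.7, 49.1 and 79.5 CPM in β1 fl/fl mice and at 160, 117 and 145 in β1 AT2-KO mice. The groups did not overlap, and the difference was 0.66 ± 0.23 log2 (edgeR adjusted p = 0.19). *Jup* overlapped, at 55.8, 67.6 and 93.5 against 146, 87.5 and 94.2 (0.52 ± 0.26, edgeR adjusted p = 0.44). None of the other members passed, with *Ctnna1* differing by 0.25 ± 0.22, *Ctnnb1* by -0.19 ± 0.18, *Vcl* by -0.10 ± 0.23 and *Afdn* by -0.36 ± 0.19 on the log2 scale. Over whole libraries, which also hold AT2 gate cells without a single hashtag, *Vcl* was at 97.9 CPM in β1 fl/fl and 126 in β1 AT2-KO lungs. *Afdn* was at 131 and 134 there, so the lower values of *Vcl* and *Afdn* rest on the singly tagged cells. After TMM scaling the groups did not overlap for 3 members, *Ctnnd1* and *Nectin2* (higher) and *Afdn* (lower), where 17.5% of all genes tested did not overlap in either direction; on plain CPM *Afdn* overlapped.

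Markers of other epithelial states and other cell types moved with genotype in the same gate at day 7. The 8 AT1 markers summed to 1324 to 1622 CPM in β1 fl/fl mice and 2158 to 2945 in β1 AT2-KO mice, with all 8 detected in both libraries. The 7 genes of the *Krt8* intermediate list summed to 1308 to 1650 against 1729 to 2559. The 8 endothelial markers summed to 67.6 to 74.8 against 88.3 to 129, with *Cdh5* and *Pecam1* at 0. The 8 mesenchymal markers summed to 42.1 to 77.8 against 96.2 to 145, with *Col1a2* at 0 by the gate, and the 5 mesothelial markers, of which *Krt19* is also on the *Krt8* list, to 18.4 to 42.1 against 51.0 to 75.6. The part of these in the differences of *Ctnnd1*, *Nectin2* and *Jup* was not tested.

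**Figure D3:**
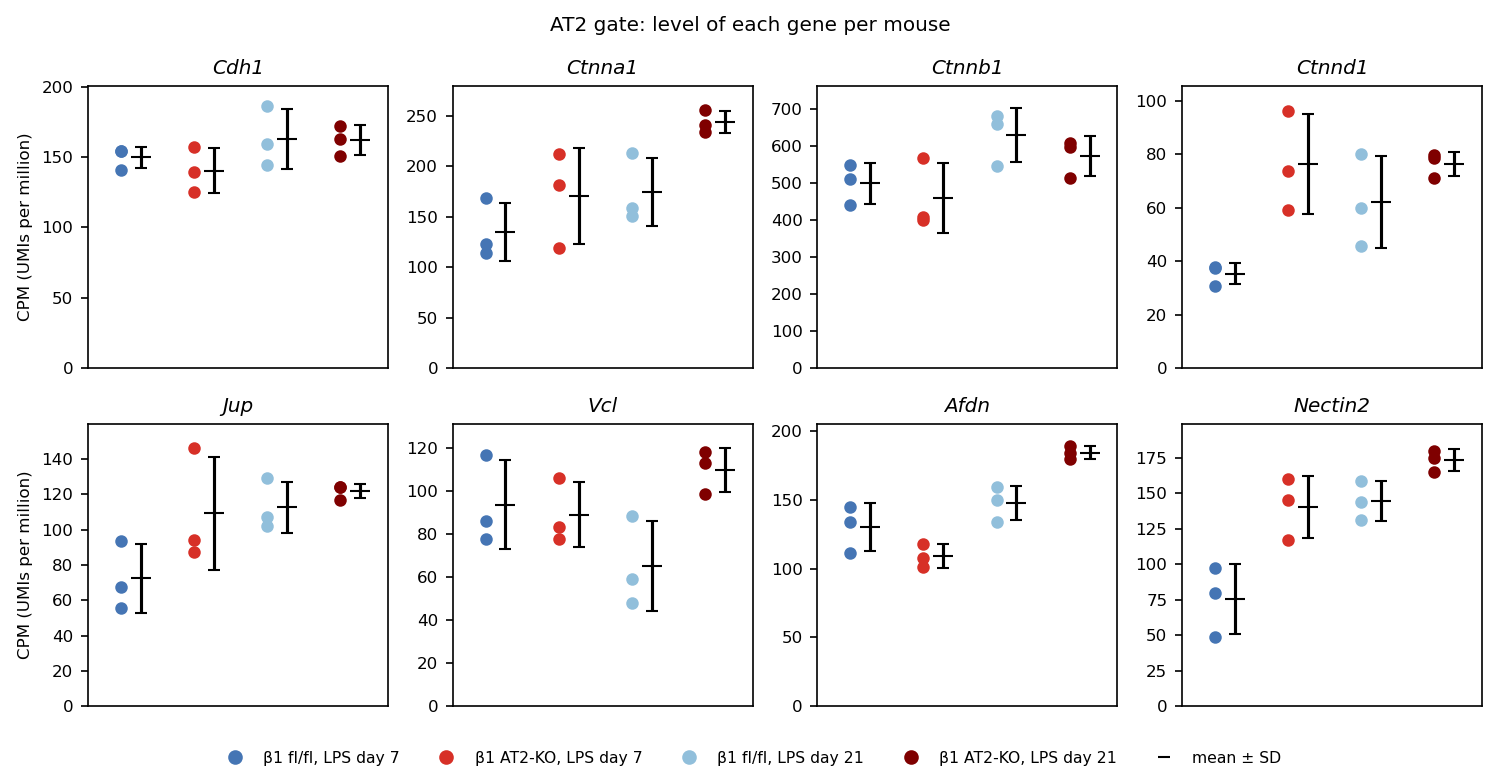
Level of each gene in AT2 gate cells of each mouse (CPM, linear axes from 0) in the 4 LPS groups, with bars for mean ± SD of 3 mice. Cdh1 overlaps between genotypes at both times, and the β1 AT2-KO mice lie above the β1 fl/fl mice for Ctnnd1 and Nectin2 at day 7 and for Ctnna1, Vcl, Afdn and Nectin2 at day 21.

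At day 21, 0 of 8 members passed with edgeR, where 4.00% of 8309 genes did. DESeq2 also called 0 of 8. In edgeR 3 members had an unadjusted p under 0.05, as did 1383 of the 8309 genes. *Cdh1* again overlapped, at 186, 159 and 144 CPM in β1 fl/fl mice and 151, 172 and 163 in β1 AT2-KO mice (-0.10 ± 0.13 log2, edgeR adjusted p = 0.77).

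*Vcl* had the largest fold change of the 8 members at day 21. It was at 59.2, 48.0 and 88.5 CPM in β1 fl/fl mice and at 98.5, 118 and 113 in β1 AT2-KO mice, without overlap. The difference was 0.54 ± 0.18 log2 (edgeR adjusted p = 0.10), and it passed without β1 fl/fl mouse 3 (0.90, adjusted p = 0.042), without the filter on low counts (0.57, 0.03) and with total UMIs alone (0.65, 0.041). *Ctnna1* stood at 151, 159 and 213 against 234, 256 and 241 (0.32 ± 0.13, edgeR adjusted p = 0.19), and *Afdn* at 159, 150 and 134 against 180, 189 and 184 (0.23 ± 0.12, edgeR adjusted p = 0.37).

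*Ctnnb1* stood at 681, 660 and 546 against 512, 609 and 598 (-0.24 ± 0.11, edgeR adjusted p = 0.28). *Nectin2* stood at 131 to 159 against 165 to 180, without overlap on this scale (0.17 ± 0.13). *Ctnnd1* and *Jup* differed by 0.11 ± 0.18 and 0.01 ± 0.14 log2. After TMM scaling 3 members did not overlap between groups, all 3 higher in β1 AT2-KO mice (*Ctnna1*, *Vcl* and *Afdn*), where 23.7% of all genes tested did not overlap in either direction. At day 21 the AT1 markers summed to 1777 to 1888 CPM in β1 fl/fl mice and 1728 to 1905 in β1 AT2-KO mice, and the *Krt8* intermediate list to 886 to 1387 against 1683 to 2026. The AT2 markers summed to 294021 to 302216 against 271846 to 275754 and the 4 club cell markers to 105 to 194 against 256 to 458, and the endothelial, mesenchymal and mesothelial sums overlapped. Their part in the day 21 differences was not tested.

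The genotype difference itself was compared between the 2 times. No member passed (0 of 8 with edgeR, 0.983% of 6307 genes passing). An unadjusted edgeR p under 0.05 was found for 3 members and for 777 of the 6307 genes. The largest differences of day 21 from day 7 were *Ctnnd1* at -0.90 ± 0.35 log2 (edgeR adjusted p = 0.28), *Vcl* at 0.63 ± 0.30 (0.39) and *Afdn* at 0.59 ± 0.22 (0.25).

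The rest of the junction did not pass in AT2 gate cells either. Of the related genes, 28 were tested at day 7 and 39 at day 21, and 0 were called at either time by edgeR. Over all genes tested, 2.00% passed at day 7 and 4.00% at day 21. At day 7 the medians were 0.36 log2 for 7 actin linkers, 0.32 for 4 desmosome genes, 0.14 for 7 nectin and afadin partners and -0.12 for 4 genes of the destruction complex, and -0.00 over all genes. At day 21 they were 0.04, 0.06, 0.05 and 0.16 (8, 4, 8 and 6 genes), with 0.01 over all genes. None of the 6 E-cadherin repressors, among them *Snai1*, *Zeb1* and *Twist1*, reached the filter on low counts in AT2 gate cells at either time.

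The PBS-treated β1 AT2-KO library held too few AT2 gate cells for a test, with no mouse reaching 10 tagged cells. Over its 26 cells *Cdh1* stood at 81.8 CPM (21 UMIs, exact 95% interval 50.6 to 125) and *Nectin2* at 129 (33 UMIs, 88.5 to 180). *Ctnnb1* stood at 358 (289 to 439), and *Ctnna1*, *Vcl* and *Afdn* at 144, 93.5 and 101. The interval of *Cdh1* lay below that of the LPS-treated β1 AT2-KO library at day 7, 139 to 168, and these are 2 libraries without a replicate check.

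In endothelial gate cells, which the SP-C promoter does not target, 1 of 7 members tested passed between genotypes at each time. *Cdh1* was not tested there, being under the filter on low counts. At day 7 it was *Jup*, at 712, 832 and 752 CPM in β1 fl/fl mice and 557, 598 and 518 in LPS-treated β1 AT2-KO mice. The groups did not overlap, and *Jup* was lower in β1 AT2-KO lungs by -0.47 ± 0.09 log2 (edgeR adjusted p = 0.026), where 2.42% of 11374 genes passed. The call was lost on leaving out any of 5 of the 6 mice (adjusted p = 0.053 to 0.15, log2 fold change -0.53 to -0.41), and held without β1 AT2-KO mouse 3 (0.023). *Nectin2* stood at 26.0, 23.3 and 25.3 against 14.1, 17.3 and 30.4 (-0.29 ± 0.23, edgeR adjusted p = 0.59) and passed without β1 AT2-KO mouse 3 (-0.68, 0.03). The other 5 members tested lay between -0.14 and 0.08 log2. In the same gate the mesenchymal markers summed to 323 CPM in the β1 fl/fl and 441 in the β1 AT2-KO library (7 of 8 detected, *Col1a2* at 0 by the gate), and at day 21 to 356 and 159; their part was not tested.

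At day 21 the member that passed was *Afdn*, at 275, 325 and 289 CPM in β1 fl/fl mice and 445, 387 and 406 in β1 AT2-KO mice. It was higher by 0.49 ± 0.12 log2 without overlap (edgeR adjusted p = 0.041), where 1.38% of 7315 genes passed. The call was lost on leaving out any of the 6 mice (adjusted p = 0.053 to 0.17) and with total UMIs alone (0.47, 0.053). *Vcl* was at 396 to 451 against 458 to 640 (0.39 ± 0.13, edgeR adjusted p = 0.15), *Ctnnb1* at 238 to 314 against 178 to 238 (-0.41 ± 0.14, 0.20), and *Jup* at 511, 561 and 516 against 528, 652 and 538 (0.14 ± 0.11, 0.69). *Sftpc* in these endothelial cells, taken here as free RNA, was 2272 to 4472 CPM in β1 fl/fl mice and 14488 to 16855 in β1 AT2-KO mice. At the *Afdn* to *Sftpc* ratio of AT2 gate cells, that much *Sftpc* would bring 14.2 of the 410 CPM of *Afdn* in the β1 AT2-KO library and 1.93 of the 323 in the β1 fl/fl library. The part of free RNA or of other cells in the *Afdn* difference was not tested.

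**Figure D4:**
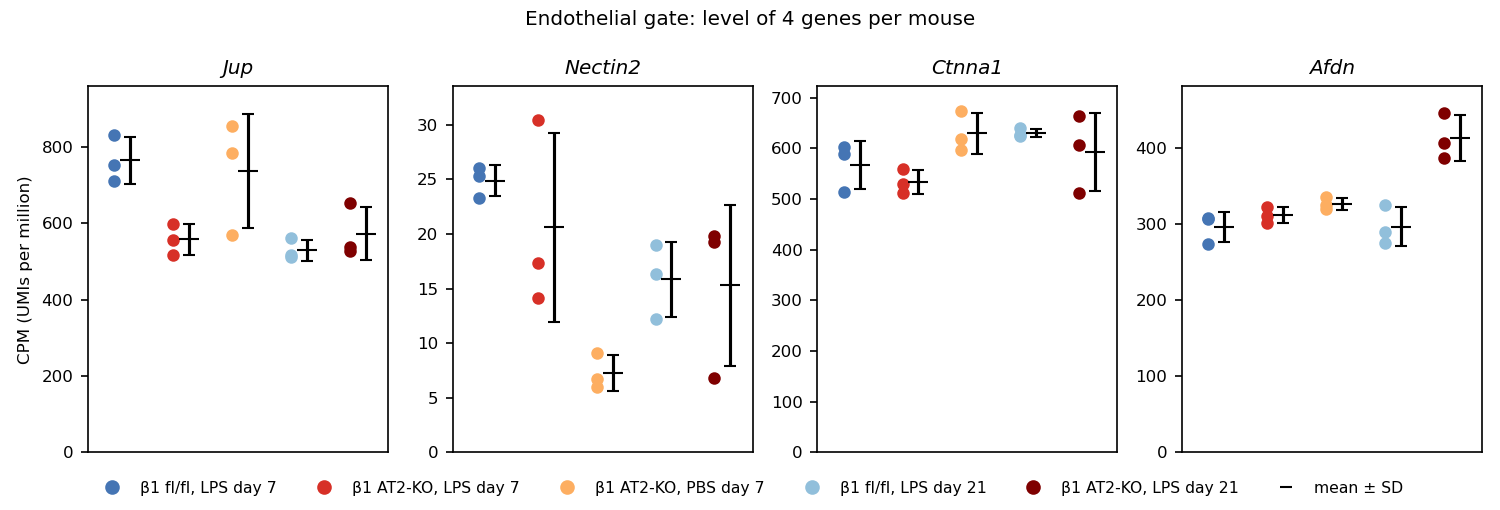
Level of 4 of the genes in endothelial gate cells of each mouse (CPM, linear axes from 0) in all 5 groups, with bars for mean ± SD of 3 mice. Jup lies lower in LPS-treated β1 AT2-KO mice (518 to 598) than in β1 fl/fl mice (712 to 832) at day 7, and Afdn lies higher in β1 AT2-KO mice (387 to 445) than in β1 fl/fl mice (275 to 325) at day 21.

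The *Jup* share of *Jup* and *Ctnnb1* UMIs in endothelial cells went in opposite directions at the 2 times. It was 62.8% to 65.8% in β1 fl/fl mice and 57.1% to 60.2% in β1 AT2-KO mice at day 7, and 61.9% to 68.5% against 71.8% to 74.8% at day 21. Neither pair of groups overlapped, and each gave an exact permutation p = 0.1 (two-sided, adjusted p = 0.18 over 16 ratios), the smallest possible for 3 against 3. Besides *Ctnnd1* per *Cdh1*, *Vcl* per *Ctnna1* also reached it, in AT2 cells at both times and in endothelial cells at day 21. The *Jup* share, *Ctnnb1* per *Cdh1* and *Ctnna1* per *Ctnnb1* in AT2 cells at day 21 did so too.

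Of 33 related genes tested in endothelial cells at day 7, 1 was called: *Tcf7*, a transcription factor of the β-catenin pathway and one of its targets, was higher in β1 AT2-KO lungs by 1.96 ± 0.19 log2 (edgeR adjusted p = 6.45e-04). At day 21, 0 of 21 were called by edgeR. Over all genes tested, 2.42% passed at day 7 and 1.38% at day 21.

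Whether genotype acted differently in AT2 and endothelial cells of the same mice was tested as an interaction. At day 7, 2 of 8 members passed, where 1.12% of 11413 genes did. *Jup* differed by 1.00 ± 0.28 log2 (edgeR adjusted p = 0.036), from fold changes of 0.52 in AT2 cells and -0.47 in endothelial cells. *Nectin2* differed by 1.03 ± 0.29 (edgeR adjusted p = 0.041), and *Ctnnd1* by 1.05 ± 0.32 (0.072). The *Jup* call was lost without β1 AT2-KO mouse 1 or 3 or β1 fl/fl mouse 1 or 2 (adjusted p = 0.091 to 0.39), the *Nectin2* call without β1 AT2-KO mouse 1 or 2 or any β1 fl/fl mouse (0.0501 to 0.40), and both without the filter on low counts (0.053 and 0.0501). The *Ctnnd1* difference passed without β1 AT2-KO mouse 1 (1.24, 0.031) and with total UMIs alone (1.11, 0.046).

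At day 21, 0 of 8 members passed the interaction by edgeR, where 1.74% of 8483 genes did. Of all genes tested, 889 had an unadjusted p under 0.05, and 2 of the members did. One of these, *Cdh1* (-2.12 ± 1.02, adjusted p = 0.46), rested on 0 to 5 endothelial UMIs a mouse, and the other was *Ctnna1* (0.40 ± 0.18, 0.43). *Itgb1*, for comparison, differed by -1.32 ± 0.17 (1.08e-07), lower in AT2 cells and without a difference that passed in endothelial cells (0.10 ± 0.10, 0.76).

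**Figure D5:**
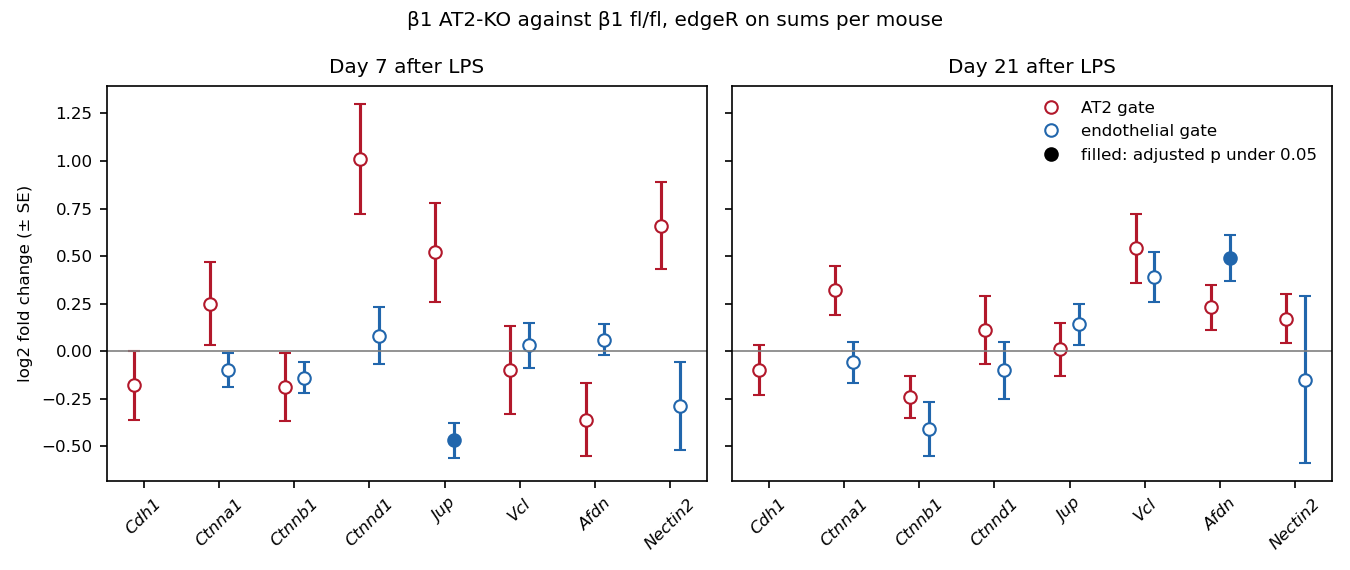
Log2 fold change of β1 AT2-KO against β1 fl/fl for each gene (± SE, edgeR on sums per mouse) in the AT2 and endothelial gates at day 7 and day 21 after LPS. Filled points, Jup at day 7 (-0.47) and Afdn at day 21 (0.49), both endothelial, passed at an adjusted p under 0.05.

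LPS was compared with PBS in endothelial gate cells of β1 AT2-KO lungs at day 7, and 3 of 7 members passed, where 22.1% of 11201 genes did. *Nectin2* was at 14.1, 17.3 and 30.4 CPM after LPS and 9.13, 5.98 and 6.76 after PBS, so that every LPS mouse was above every PBS mouse. It was higher by 1.38 ± 0.30 log2 (edgeR adjusted p = 0.011), and passed on leaving out each mouse (adjusted p = 0.009 to 0.046). *Sftpc*, taken here as free RNA, was also higher after LPS, at 4090 against 730 CPM. At the *Nectin2* to *Sftpc* ratio of AT2 gate cells, this would bring 2.75 of the 22.4 CPM of *Nectin2* after LPS and 0.383 of the 7.29 after PBS. The part of free RNA or of other cells in the *Nectin2* difference was not tested.

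*Jup* was at 557, 598 and 518 after LPS and 785, 569 and 856 after PBS, overlapping on this scale (-0.50 ± 0.14, edgeR adjusted p = 0.031). *Ctnna1* was at 530, 560 and 512 against 597, 618 and 674, without overlap (-0.34 ± 0.08, edgeR adjusted p = 0.019). With total UMIs alone neither passed (-0.40, adjusted p = 0.073, and -0.24, 0.074). The *Jup* call was lost without any of the LPS mice or without PBS mouse 1 or 3 (0.059 to 0.11), and the *Ctnna1* call without LPS mouse 1 or PBS mouse 2 or 3 (0.057 to 0.079). *Ctnnb1*, *Ctnnd1*, *Vcl* and *Afdn* differed by 0.15 ± 0.10, -0.16 ± 0.13, 0.08 ± 0.08 and -0.17 ± 0.07. This comparison shares the LPS-treated β1 AT2-KO library with the genotype comparison at day 7.

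Among 33 related genes tested between LPS and PBS, 9 were higher and 4 lower in endothelial cells after LPS. Over all genes tested there, 22.1% passed. The largest rises were in *Cdh11* (2.83 ± 0.49 log2, edgeR adjusted p = 0.0042), *Ctnnal1*, an α-catenin relative (1.26 ± 0.31, 0.018), *Ssx2ip*, an afadin partner (1.03 ± 0.23, 0.013), and *Ctnnbip1*, an inhibitor of β-catenin (0.99 ± 0.15, 0.002). *Snai2*, a repressor of E-cadherin, was higher by 0.87 ± 0.27 (0.048), *Tcf7* by 0.74 ± 0.18 (0.017), and *Zyx* by 0.62 ± 0.09 (0.0016). *Nkd1*, a target of β-catenin that dampens its pathway, was lower by -0.84 ± 0.11 (0.0013), as were *Rap1a* (-0.42 ± 0.08, 0.0067), *Gsk3a* (-0.41 ± 0.11, 0.032) and *Rap1b* (-0.37 ± 0.10, 0.029). *Apc* and *Btrc* of the destruction complex were higher (0.34 ± 0.10 and 0.32 ± 0.10). The mesenchymal markers in this endothelial gate summed to 441 CPM after LPS and 119 after PBS, with 7 of 8 detected and *Col1a2* at 0 by the gate, and *Cdh11* was lower in endothelial than in mesenchymal gate cells (-6.33 ± 0.27 log2, edgeR adjusted p = 1.75e-15). Their part in the rises of *Cdh11* and *Snai2* was not tested.

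In mesenchymal gate cells no member passed between genotypes. At day 7, 0 of 6 members tested passed with edgeR, where 0.121% of 4961 genes did, and 0 had an unadjusted p under 0.05. Their differences lay between -0.25 (*Afdn*) and 0.33 (*Jup*) log2. At day 21, with 2 β1 AT2-KO mice (mouse 3 had 8 gated cells and was left out) against 3 β1 fl/fl mice, 0 of 3 tested passed, where 0.198% of 1512 genes did, and again 0 had an unadjusted p under 0.05. *Vcl* was at 223 and 565 against 138 to 313 CPM (0.94 ± 0.50, edgeR adjusted p = 0.54), from 13 to 28 UMIs a mouse, so that only a large change could have been detected at this depth.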

How the data were processed

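The authors sequenced 5′ 10x libraries of CD45- Ter119- lung cells. They deposited raw UMI counts per gene and cell, made with Cell Ranger 3.1 on mm10, per the labels. Their quality filter, SoupX correction, doublet removal and Seurat steps are not in the deposited counts. Here a barcode needed 700 or more genes and a mitochondrial share of 0.1% to 15% to enter a gate. No doublet caller was run; the gates drop cells with markers of another gate, and cells with several hashtags were left out of sums per mouse. A hashtag was assigned where its count was at least 4 times its background and no other was. Counts were summed per mouse with at least 10 gated cells and tested with edgeR 4.0.16 in R 4.3.3 (TMM, default filter, quasi-likelihood), on all genes, at an adjusted p under 0.05. SE is the fold change divided by the square root of F. Gate contrasts and the interaction had the mouse as a block. DESeq2 1.42.0, other scalings, gates and filters, and each mouse left out, were alternatives. Scripts were tested on simulated data. Named genes were the members and the called genes of the lists. The members and lists were chosen with earlier results of these data known. The difference between times, the alternatives for LPS against PBS, the ratios and the scaling by total UMIs were added after seeing the data.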

Additional observations from a re-analysis of the deposited data

Results flagged for a closer look

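In 3 cases the genotype difference was unlike in AT2 and endothelial cells of the same mice, by the interaction in edgeR. At day 7 the difference in *Nectin2* was greater in AT2 cells by 1.03 ± 0.29 log2 (adjusted p = 0.041), and that in *Jup* by 1.00 ± 0.28 (adjusted p = 0.036). At day 21 the difference in *Itgb1*, the deleted gene, was -1.32 ± 0.17 (adjusted p = 1.08e-07). Neither *Nectin2* nor *Jup* passed the test in AT2 cells alone, and each of these 2 calls was lost on leaving out several mice.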

How the results depend on the processing

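Leaving out the filter on low counts moved the number of genes called to 147 at day 7 in AT2 cells, 280 at day 21 in endothelial cells, 196 and 44 at days 7 and 21 in mesenchymal cells, 105 for the time difference, and 9218, 6491 and 7147 for AT2 against endothelial, AT2 against mesenchymal and endothelial against mesenchymal cells. It gave 1 member called at day 21 in AT2 cells (*Vcl*) and 0 in the day 7 interaction. DESeq2 called 50 genes at day 7 in AT2 cells. With total UMIs alone, 1 member was called at day 21 in AT2 cells (*Vcl*), 0 at day 21 in endothelial cells and 1 between LPS and PBS (*Nectin2*).

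With each mouse left out in turn, genes called ranged over 37 to 116 and 164 to 327 in AT2 cells, 86 to 452 and 40 to 154 in endothelial cells and 3 to 50 and 1 to 6 in mesenchymal cells (days 7 and 21), 81 to 107 and 69 to 152 for the interactions, 26 to 65 for the time difference and 1547 to 2546 for LPS against PBS. Members called ranged over 0 to 1 at day 21 in AT2 cells, 0 to 2 and 0 to 0 in endothelial cells, 0 to 1 in the day 7 interaction, 1 to 2 for LPS against PBS and 6 to 8 for AT2 against mesenchymal cells.

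In 29 fits a member changed sign, 21 of them on leaving out a mouse, and 1 of these 29 concerned a call, *Ctnna1* between AT2 and mesenchymal cells. By setting, *Jup* at day 21 in AT2 cells was -0.00 with DESeq2 size factors and without surfactant genes and -0.01 with DESeq2. *Cdh1* there was 0.02 with total UMIs alone. *Ctnnb1* in the day 7 interaction was 0.01 without the filter and with total UMIs alone, and AT2 against mesenchymal values were -0.05 (*Ctnna1*) and -0.01 (*Ctnnd1*) with total UMIs alone. With each mouse left out, values ranged over -0.27 to 0.04 (*Vcl*, day 7, AT2), -0.22 to 0.01 (*Cdh1*), -0.04 to 0.42 (*Ctnnd1*) and -0.06 to 0.11 (*Jup*) at day 21 in AT2 cells. In endothelial cells they ranged over -0.05 to 0.22 (*Ctnnd1*), -0.10 to 0.17 (*Vcl*) and -0.01 to 0.09 (*Afdn*) at day 7, and -0.14 to 0.03 (*Ctnna1*), -0.22 to 0.06 (*Ctnnd1*) and -0.46 to 0.30 (*Nectin2*) at day 21. In the day 7 interaction they ranged over -0.46 to 0.62 (*Cdh1*), -0.22 to 0.08 (*Ctnnb1*) and -0.39 to 0.20 (*Vcl*). The cause was not tested. In 805 other fits of a member or *Itgb1* the direction and the call stayed as reported. With the direction kept, a call was lost in 38 fits and gained in 10. These counts and the 29 leave out the genotype tests in mesenchymal cells, the day 21 interaction and the time difference.

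Subtracting the endothelial level of the same mouse as free RNA gave log2 ratios for *Cdh1* of -0.09 at day 7 and -0.04 at day 21 (-0.09 and -0.01 before). For *Ctnnb1* and *Nectin2* this is no correction for free RNA, since the AT2 ratio to *Sftpc* would bring 9.16 of the 375 CPM of *Ctnnb1* and 2.75 of the 22.4 of *Nectin2* in endothelial cells of the LPS-treated β1 AT2-KO library at day 7, and no value is drawn from it. The other 5 members were lower in AT2 than in endothelial cells and gave no value. No paired analysis was possible because the labels give no replicate numbers shared between groups; contrasts of gates and interactions were paired within hashtags. Depth limits the AT2 sums, with 5 to 19 *Ctnnd1* UMIs a mouse in β1 fl/fl lungs at day 7.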
